A study of Mus musculus with 40 samples.

Results

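The comparison described here asked what an Fc-dead mAb against GARP:TGF-β1 added to an anti-PD-1 mAb in CT26 tumors. It set 5 mice that received anti-GARP:TGFb FcD + anti-PD1 FcS (mice 44, 50, 60, 71 and 80) against 5 mice that received anti-PD1 FcS without the other mAb (mice 47, 52, 54, 67 and 76), as the treatment tag of each sample gives it. These are 10 of the 40 mice and 2 of the 8 treatment groups of the series, and all genes of the table enter the comparison. All mice were BALB/c and carried subcutaneous tumors from 1000000 injected CT26 cells, a colon carcinoma line of that strain. Injections of mAbs into the peritoneum followed on days 6, 9 and 12, and the tumor was taken on day 13. The mAb against GARP:TGF-β1 was clone 58A2 with a mouse IgG2a Fc mutated so that it does not bind Fcγ receptors (FcD), and the anti-PD-1 mAb had a silent Fc as well (FcS), so neither mAb of the combination was made to engage cells through Fc receptors. The other groups used below received an isotype control mAb (motavizumab), the FcD mAb alone, the same clone with its Fc intact (WT) plus anti-PD-1, or the anti-TGF-β mAb 1D11 plus anti-PD-1, with 5 mice in each. The material was RNA of whole tumor fragments, read as stranded mRNA libraries, and the labels give no age, litter or day for single mice. The p-values of genes below judge a difference against the spread between mice of a group, estimated from all 40 mice unless stated otherwise.

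TGF-β1 is secreted in a latent form, in which the mature cytokine stays wrapped in its own propeptide. GARP, a transmembrane protein encoded by Lrrc32, holds latent TGF-β1 on the surface of stimulated regulatory T cells, platelets and some other cells, where integrins can release the active cytokine, and the mAb prevents that release. Active TGF-β1 restrains T cells, NK cells and macrophages and drives fibroblasts to make matrix. PD-1 is an inhibitory receptor of stimulated T cells, and blocking it lets T cells that recognise tumor antigen divide, kill and secrete interferon-γ (IFNγ). IFNγ acts through JAK kinases and IRF1 on nearly every cell of a tumor and turns on guanylate-binding proteins, antigen presentation and the ligands of PD-1, while TNF and IL-1 act through NF-κB on chemokines and adhesion molecules.

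Some genes stand in more than 1 of the lists used below. Promoters of genes from the main inducible lists are shown first, since the accounts below turn on these lists. For each list, the gene with the smallest p among those with an entry in the set of RefSeq promoters used here (GRCm38.p6) is shown. The window spans 250 bases before and 50 bases after its start, read on the + strand of each gene. Gbp11 and Csf2rb had the smallest p of their lists but no entry in this set, so the next gene with an entry is shown. The promoters of the 4 genes follow. They are Irf8 (chr8:120736108-120736407), a transcription factor of IFNγ-stimulated macrophages and dendritic cells, Gbp5 (chr3:142496684-142496983), a guanylate-binding protein that promotes inflammasome assembly, Sod2 (chr17:13007589-13007888), the mitochondrial superoxide dismutase induced by TNF, and Cxcr2 (chr1:74153744-74154043), the neutrophil receptor for CXC chemokines. Capitals mark every match, on either strand, to GAAANNGAA (an interferon-stimulated response element core), TTCNNNGAA (a STAT site) or GGGANTTTC (an NF-κB site).
Irf8: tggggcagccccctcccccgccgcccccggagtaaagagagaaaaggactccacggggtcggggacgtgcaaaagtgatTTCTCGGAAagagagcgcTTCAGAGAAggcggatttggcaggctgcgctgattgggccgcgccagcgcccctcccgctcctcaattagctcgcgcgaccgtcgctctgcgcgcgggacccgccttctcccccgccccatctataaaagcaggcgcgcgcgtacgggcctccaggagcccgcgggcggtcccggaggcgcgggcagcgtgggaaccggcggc
Gbp5: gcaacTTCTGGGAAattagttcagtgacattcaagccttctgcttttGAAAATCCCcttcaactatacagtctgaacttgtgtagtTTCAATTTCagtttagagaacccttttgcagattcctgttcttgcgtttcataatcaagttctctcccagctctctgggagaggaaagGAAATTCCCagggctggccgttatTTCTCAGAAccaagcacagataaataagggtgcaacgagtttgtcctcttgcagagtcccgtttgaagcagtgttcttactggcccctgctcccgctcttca
Sod2: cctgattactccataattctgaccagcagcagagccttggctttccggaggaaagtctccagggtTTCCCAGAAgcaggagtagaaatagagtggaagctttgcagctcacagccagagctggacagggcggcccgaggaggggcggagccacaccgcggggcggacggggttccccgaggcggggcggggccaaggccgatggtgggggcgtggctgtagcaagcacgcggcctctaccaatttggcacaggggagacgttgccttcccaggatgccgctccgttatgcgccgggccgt
Cxcr2: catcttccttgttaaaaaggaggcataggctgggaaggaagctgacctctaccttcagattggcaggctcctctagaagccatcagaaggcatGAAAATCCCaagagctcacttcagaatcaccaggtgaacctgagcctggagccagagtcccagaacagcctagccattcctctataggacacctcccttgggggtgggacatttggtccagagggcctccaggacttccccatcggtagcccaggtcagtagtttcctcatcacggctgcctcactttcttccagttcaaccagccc
The window of Irf8 held 2 matches to TTCNNNGAA, and that of Gbp5 held 1 match to GAAANNGAA, 2 to TTCNNNGAA and 2 to GGGANTTTC. The window of Sod2 held 1 match to TTCNNNGAA, and that of Cxcr2 held 1 match to GGGANTTTC. Irf8 has a further RefSeq start (chr8:120738389-120738688), whose window held none of the 3. Of all 32851 promoters of the same length, 8.56% held GAAANNGAA, 8.3% held TTCNNNGAA and 1.11% held GGGANTTTC. Among the genes tested here, GAAANNGAA stood in 5 of the 6 promoters matched to the guanylate-binding proteins (5 of 11 genes had an entry) and in 5 of 20 promoters of the IFNγ signaling list (17 of 25 genes). GGGANTTTC stood in 5 of 8 promoters of the neutrophil-attracting chemokines and growth factors (8 of 10 genes) and in 3 of 29 of the TNF and NF-κB list (24 of 30 genes). It also stood in 2 of 20 of the IFNγ signaling list and in 1 of 6 of the guanylate-binding proteins. GAAANNGAA stood in 2 of 8 of the neutrophil-attracting list and in 4 of 29 of the TNF and NF-κB list. TTCNNNGAA stood in 6 of 20 (IFNγ signaling), 2 of 6 (guanylate-binding proteins), 8 of 29 (TNF and NF-κB) and 0 of 8 (neutrophil-attracting).

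No gene passed the test for the effect of adding the FcD mAb. In edgeR's quasi-likelihood test, 0 of 14760 genes (0%) had a Benjamini-Hochberg adjusted p under 0.05, and the smallest adjusted p was 0.458. DESeq2's Wald test gave 0 genes as well, with a smallest adjusted p of 0.214. At an unadjusted p under 0.05, edgeR gave 1583 genes (10.7%), of which 953 (6.46%) were higher and 630 (4.27%) lower with the combination. DESeq2 was run without the filter on low counts and gave 1985 of 31287 genes, of which 1283 were higher. All 5 combination mice lay above all 5 anti-PD-1 mice for 70 genes (0.474%) and below them for 77 (0.522%). The median log2 difference over all tested genes was -0.01, so that values below can be read against a centre near 0. Throughout, "higher" and "lower" describe the fitted log2 difference, combination minus anti-PD-1, and a list is described by how many of its tested members had an unadjusted p under 0.05 and by the median of its log2 differences.

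The number of genes at an unadjusted p under 0.05 depended on single mice of both groups. It was 3719 without combination mouse 50 and 2984 without anti-PD-1 mouse 52, and it was 775 without mouse 44, 700 without mouse 71 and 886 without mouse 54. Leaving out any of the other 5 mice gave between 1112 and 1475 genes. Each of these 10 fits gave 0 genes at an adjusted p under 0.05, and the smallest adjusted p among them, 0.0598, was reached without mouse 50. In the IFNγ signaling, MHC class II, T cell receptor, NK cell, killing and macrophage lists described below, mouse 50 had the lowest mean level of the combination mice and mouse 52 the highest of the anti-PD-1 mice.

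**Figure D1:**
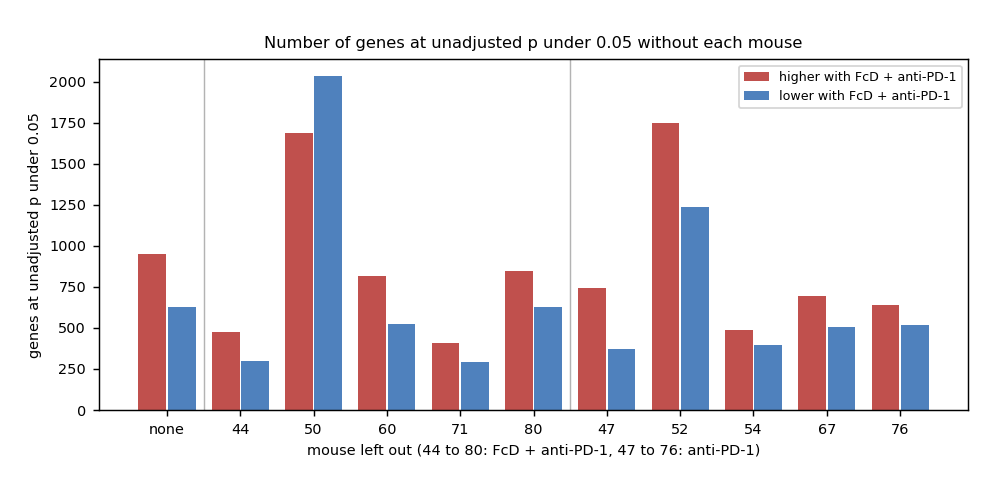
Bars give the number of genes at an unadjusted p under 0.05 (y axis), red for higher and blue for lower with the combination, with all mice (none) and without each of the 10 mice in turn (x axis). The tallest pairs are those without mouse 50 (1685 higher, 2034 lower) and without mouse 52 (1745 higher, 1239 lower), against 953 and 630 with all mice.

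Libraries were of similar depth, with totals of 12359062 to 14612143 counts in the 10 mice (exact permutation test of the group means, 2-sided, p = 0.746, where 0.00794 is the smallest possible). Libraries 41 to 60 carried transcripts of the Y chromosome and libraries 61 to 80 carried Xist, so the groups hold mice of both sexes in the same ratio, 3 from the first range and 2 from the second. Genes of other tissues differed between tumors. In log2 CPM, where CPM is a count scaled to a library of 1000000, the mean of 16 adipocyte genes was 2.84 to 6.28 in the combination mice, 1.45 to 1.98 in 4 anti-PD-1 mice and 5.21 in mouse 47. The mean of 14 skeletal muscle genes was 4.23 in mouse 52 and at most 1.17 in the other 9 mice, and that of 23 epithelial genes was 4.55 in mouse 71 and at most 2.86 in the others. The mean of 8 erythrocyte genes was 0.69 to 3.93 in the combination mice and 0.3 to 1.85 in the anti-PD-1 mice. The part of these tissues in the results below was not tested. In a whole tumor, fewer cells of a type and less RNA per cell cannot be told apart.

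Genes of the IFNγ response were on the higher side with the combination. Of the 25 genes in the IFNγ signaling list, all tested, 24 had a log2 difference above 0, with a median of 0.53, and 11 were higher and 0 lower at an unadjusted p under 0.05, against 6.46% and 4.27% of all genes. The mean log2 CPM of the list was 6.24 ± 0.18 with the combination and 5.50 ± 0.66 with anti-PD-1 (SD, n = 5 each), beside 5.47 with the isotype control. It was 5.93 to 6.39 in the combination mice, while the anti-PD-1 mice ran from 4.5 in mouse 47 to 6.18 in mouse 52, so that only mouse 52 overlapped the combination group. The count of higher genes was 5 without mouse 47, 7 without mouse 44 or 54 and 18 without mouse 52. The median was 0.31 without mouse 47, the lowest of the fits without 1 mouse, and 0.70 without mouse 52, the highest. It was 0.73 within libraries 41 to 60 and 0.26 within libraries 61 to 80.

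For the genes named from here on, p-values are those of the comparison with anti-PD-1 unless another comparison is named. The adjusted p in edgeR was 0.458 unless another value is given. The unadjusted p was under 0.05 unless it is said to be over it or an adjusted p is printed. Values of single mice are given in the order 44, 50, 60, 71, 80 for the combination and 47, 52, 54, 67, 76 for anti-PD-1. Ifng itself (chromosome 10, 118441046 to 118445892, GRCm38) was at 3.31, 2.56, 3.85, 3.51 and 3.58 CPM with the combination and at 0.148, 3.45, 0.285, 1.84 and 1.23 CPM with anti-PD-1. The combination mice were close together, and of the anti-PD-1 mice only mouse 52 reached their levels. The log2 difference was 1.26 (SE 0.47), and it was 0.97 without mouse 47 and 1.93 without mouse 52. Irf8 was at 182, 103, 130, 143 and 128 CPM against 48.2, 132, 69.8, 88.3 and 81.4 CPM (log2 difference 0.71, SE 0.25). Here again mouse 52 alone lay among the combination mice. Socs1, the feedback inhibitor of the JAK kinases that IFNγ induces, was at 39.9, 40.1, 38.9, 33.8 and 40.4 CPM against 14.3, 37.4, 22.9, 27.7 and 28.2 CPM (log2 difference 0.56, SE 0.21). Nos2, the inducible nitric oxide synthase of IFNγ-stimulated macrophages, was at 182, 26.2, 85.5, 110 and 62.6 CPM against 17.7, 82.9, 12.4, 35.2 and 24.9 CPM (log2 difference 1.43, SE 0.54). For Nos2, combination mice 50 and 80 lay within the anti-PD-1 range, whose top was again mouse 52.

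Irf1, the transcription factor that carries much of the IFNγ response, was at 405 ± 45.7 CPM with the combination and 281 ± 126 CPM with anti-PD-1 (SD, log2 difference 0.53, SE 0.25). Of the chemokines that draw CXCR3-bearing T cells, Cxcl10 had a log2 difference of 0.51 (SE 0.24) and Cxcl9 one of 0.68 (SE 0.39, adjusted p = 0.468), with 303 ± 88.1 against 189 ± 103 CPM for Cxcl9. All 11 guanylate-binding protein genes, whose products attack vacuoles of intracellular microbes, had log2 differences above 0, with a median of 0.54, but only 2 had an unadjusted p under 0.05. They were Gbp11 (log2 difference 0.90, SE 0.35) and Gbp8 (0.80, SE 0.39). Gbp5, whose promoter is shown above, was at 105, 71.3, 114, 95.9 and 101 CPM against 11.7, 101, 40.7, 83.3 and 71.8 CPM (log2 difference 0.66, SE 0.36, unadjusted p over 0.05). Its lowest value by far was that of mouse 47. Of the list, 8 genes were higher without mouse 52 and 0 without mouse 47. Several Gbp genes are near-identical copies, so reads may be shared between them and single members are uncertain. The 8 tested immunity-related GTPases of the same response had a median of 0.48, all above 0, and 0 of them had an unadjusted p under 0.05, while 5 did without mouse 52. The median was 0.31 without mouse 47 for the guanylate-binding proteins and 0.23 without mouse 47 and 0.73 without mouse 52 for the immunity-related GTPases.

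Antiviral genes induced by type I interferon leaned higher too. Of 30 genes, 28 had a log2 difference above 0, the median was 0.30, and 7 were higher and 0 lower at an unadjusted p under 0.05, with 0 without mouse 47, 1 without mouse 80, 2 without mouse 44 or 54, 4 without mouse 60 and 14 without mouse 52, and the median was 0.13 without mouse 47. Dhx58, an RNA sensor also known as LGP2, was at 60.4 ± 5.81 CPM with the combination and 45.8 ± 14.5 CPM with anti-PD-1 (log2 difference 0.40, SE 0.16).

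**Figure D2:**
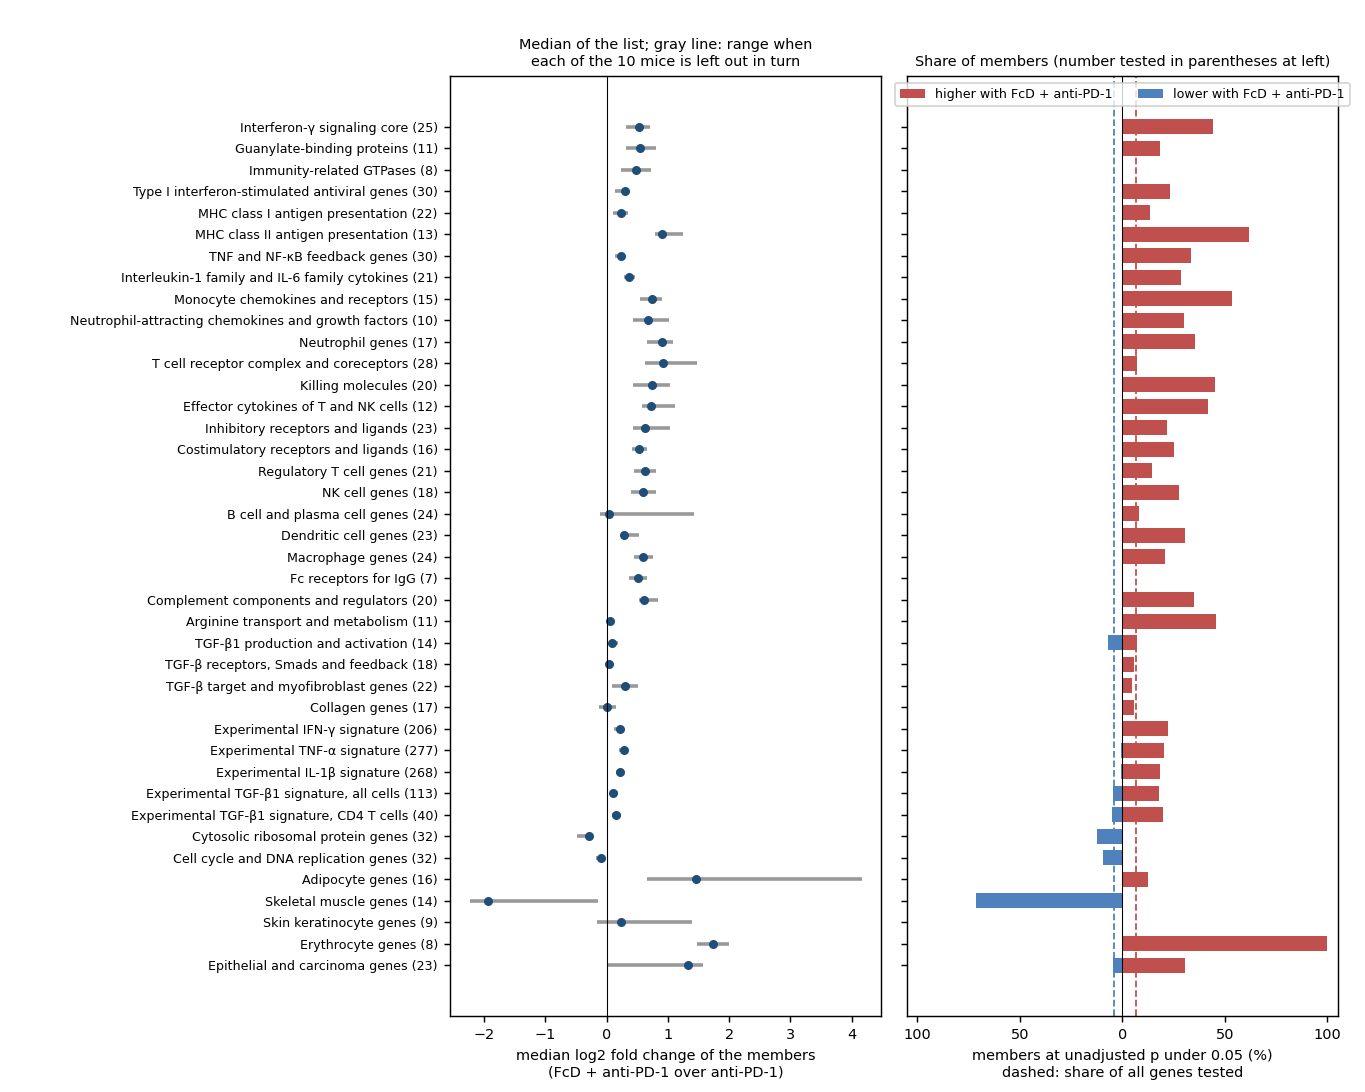
Left, the median log2 difference of each gene list, combination minus anti-PD-1 (points), with its range when each of the 10 mice is left out in turn (gray lines); right, the share of members (%) at an unadjusted p under 0.05, higher in red and lower in blue, with dashed lines at the shares of all genes. Most immune lists lie to the right of 0 (0.53 for IFNγ signaling, 0.90 for MHC class II), ribosomal protein genes lie at -0.29, and the ranges of the adipocyte and muscle lists are wide.

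Antigen presentation genes leaned higher too. All 13 tested MHC class II genes had log2 differences above 0, with a median of 0.90, and 8 of them had an unadjusted p under 0.05. H2-Ab1, which encodes the beta chain of I-A, was at 927, 455, 739, 766 and 478 CPM against 74.6, 634, 164, 395 and 208 CPM (log2 difference 1.19, SE 0.53). Cd74, the invariant chain, was at 1340 ± 333 against 632 ± 442 CPM (log2 difference 1.09, SE 0.50), and Ctss, the lysosomal protease that trims it, at 959 ± 186 against 565 ± 311 CPM (log2 difference 0.76, SE 0.34). Mouse 52 lay within the combination range of all 3 genes. The number of higher genes was 0 without mouse 47 or 54, 1 without mouse 44 or 60, 2 without mouse 71 or 76 and 11 without mouse 52, and the median ran from 0.79 to 1.24. All 22 tested MHC class I pathway genes had log2 differences above 0 as well, but with a median of 0.24 and 3 genes at an unadjusted p under 0.05. Tap1, the peptide transporter, was at 393, 411, 389, 336 and 393 CPM against 124, 366, 230, 389 and 340 CPM (log2 difference 0.41, SE 0.20), with mice 47 and 54 as the lowest. H2-D1, a classical class I gene whose copies share reads, was at 3190 ± 265 against 2790 ± 636 CPM (log2 difference 0.19, SE 0.13, adjusted p = 0.493). The class I count was 0 without mouse 44, 47 or 54, 1 without mouse 50, 60 or 80, 7 without mouse 52 and 12 without mouse 67, and the median ran from 0.10 to 0.35. Within libraries 61 to 80 the class I median was -0.05, and within libraries 41 to 60 it was 0.52.

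Genes downstream of TNF and NF-κB leaned the same way. Of 30 such genes, 25 had a log2 difference above 0, the median was 0.24, and 10 were higher and 0 lower at an unadjusted p under 0.05. Tnf was at 18.4, 14.4, 22, 16.5 and 22.3 CPM against 2.66, 21.3, 6.92, 10.5 and 7.57 CPM (log2 difference 0.93, SE 0.34). The lowest combination mouse lay above every anti-PD-1 mouse but mouse 52. Sod2 was at 118, 93.4, 101, 112 and 94.5 CPM against 80.5, 96.4, 83.7, 84.4 and 80.7 CPM (log2 difference 0.29, SE 0.09). This was a small difference with a narrow spread, and mouse 52 alone lay above 2 of the combination mice. Ikbke, a kinase that NF-κB induces, had a log2 difference of 0.75 (SE 0.28), Icam1, an adhesion receptor for leukocytes, one of 0.77 (SE 0.30), and Tnfaip3, which encodes the NF-κB inhibitor A20, one of 0.44 (SE 0.17). The number of higher genes was 3 without mouse 47, 5 without mouse 44, 6 without mouse 60, 80, 54 or 76 and 13 without mouse 52, and the median was 0.14 without mouse 44.

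The IL-1 and IL-6 cytokine families gave 6 of 21 genes higher and 0 lower, with a median of 0.36. Il1a, which encodes an alarmin form of IL-1, was at 4.76, 2.34, 1.68, 2.29 and 2.52 CPM against 0.886, 1.03, 1.14, 1.7 and 1.3 CPM (log2 difference 1.16, SE 0.34). Its groups overlapped only through mouse 60 and mouse 67, at 1.68 and 1.7 CPM. Il1b was at 99.6, 82.6, 53.3, 76.6 and 83.6 CPM against 38.8, 35.9, 46.6, 74.2 and 46.3 CPM (log2 difference 0.71, SE 0.28). Mouse 52, high in the interferon genes, had the lowest Il1b of all 10 mice. Nlrp3, the sensor of the inflammasome that releases IL-1β, was at 25.3, 14, 20.4, 35.6 and 28.3 CPM against 7.75, 16.3, 11, 16 and 17.9 CPM (log2 difference 0.84, SE 0.26). Combination mouse 50 was the only one of its group within the anti-PD-1 range. Il18bp, a secreted inhibitor of IL-18 that IFNγ induces, was at 126, 43.5, 79.3, 88.7 and 72 CPM against 9.53, 83.4, 19.2, 46.5 and 39 CPM (log2 difference 1.05, SE 0.41). The number of higher genes ran from 3 without mouse 44 to 8 without mouse 52. Genes that respond to IL-2, IL-7 and IL-15 gave 6 of 21 higher and 0 lower (median 0.22), among them Pim1, a kinase that many cytokines induce (log2 difference 0.49, SE 0.14), and Stat5a, the transcription factor of these receptors (0.67, SE 0.22). That count was 2 without mouse 47, 3 without mouse 71 or 54 and 10 without mouse 52.

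Human genes that a cytokine had induced in cultured cells, taken from the study's supplementary signatures and matched by symbol, gave the following. Of the IFNγ signature, 206 genes were tested, 46 were higher and 0 lower, with a median of 0.22. The TNFα signature gave 56 higher and 2 lower of 277 (median 0.28), and the IL-1β signature 49 higher and 2 lower of 268 (median 0.22). The signature of TGF-β1 over all cell types gave 20 higher and 5 lower of 113 (median 0.11), and that of CD4 T cells 8 higher and 2 lower of 40 (median 0.15). The counts of higher genes moved with single mice, from 23 without mouse 47 to 75 without mouse 52 for IFNγ, from 31 without mouse 44 or 54 to 93 without mouse 52 for TNFα, and from 22 without mouse 44 to 82 without mouse 52 for IL-1β. The TGF-β1 signature over all cell types gave 5 higher genes without mouse 44, 7 without mouse 54, 8 without mouse 71, 9 without mouse 67, 10 without mouse 47 and 12 without mouse 76, against 31 without mouse 50. That of CD4 T cells gave 1 without mouse 44 or 54, 2 without mouse 71, 47 or 67 and 4 without mouse 76. The counts of lower genes without mouse 50 and without mouse 52 were 17 and 8 for IFNγ, 10 and 11 for TNFα, 14 and 9 for IL-1β, and 8 in both fits for TGF-β1 over all cell types. The signatures share genes, and over all tested genes 6.46% were higher and 4.27% lower with all mice. Of all 14760 genes, 1685 were higher and 2034 lower without mouse 50, and 1745 were higher and 1239 lower without mouse 52.

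**Figure D3:**
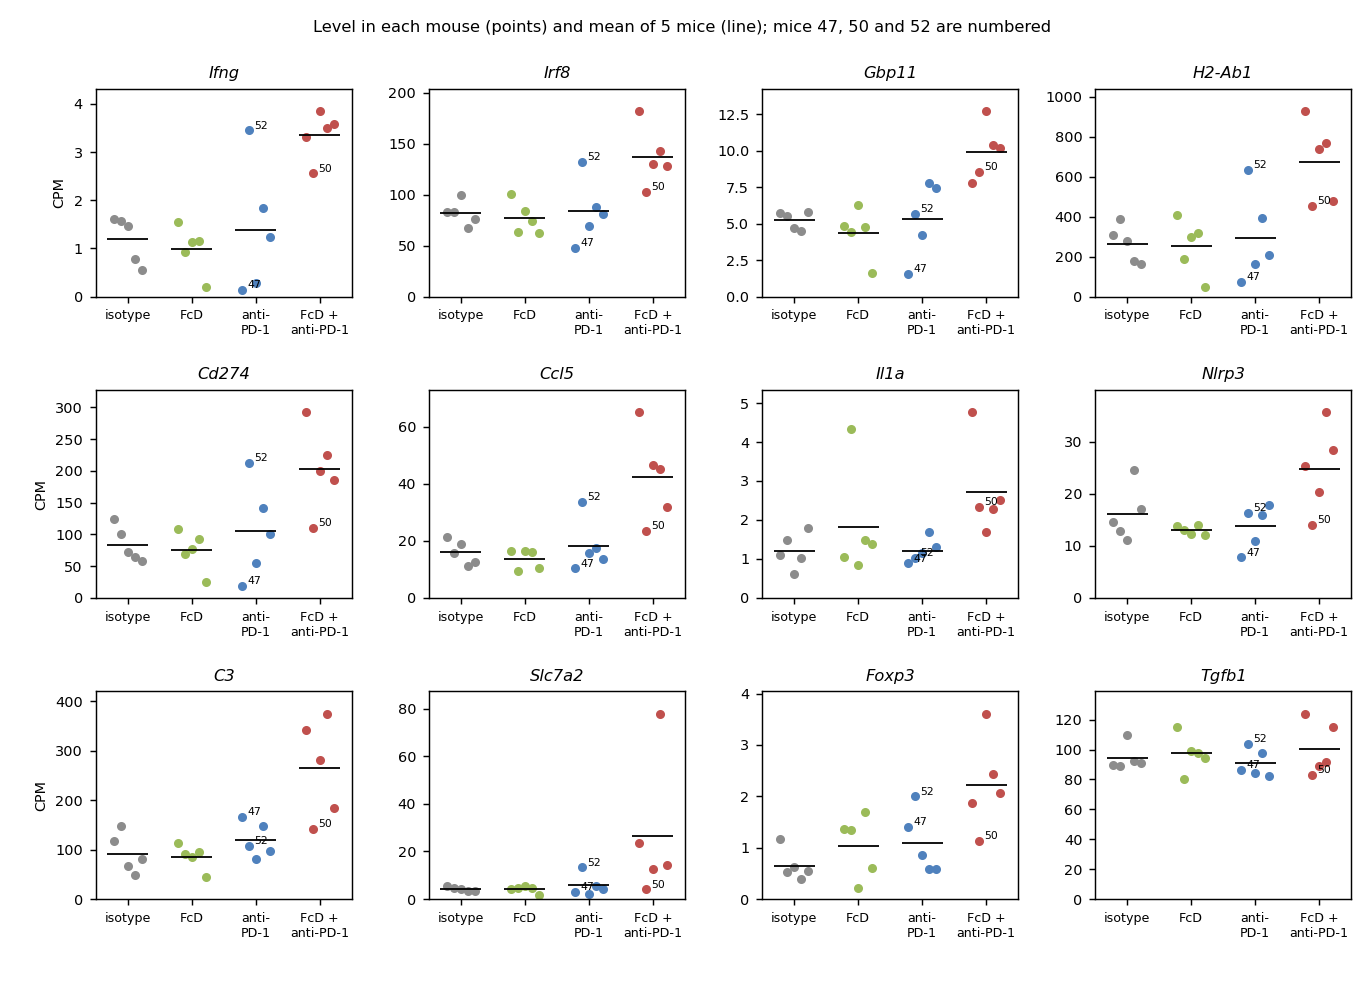
CPM (linear y axes) of 12 genes in each mouse (points) with the mean of 5 mice (lines) for the isotype control, FcD alone, anti-PD-1 and FcD + anti-PD-1, with mice 47, 50 and 52 numbered. For Ifng the combination mice lie between 2.56 and 3.85 CPM and the anti-PD-1 mice between 0.148 and 3.45 CPM, with mouse 52 at the top, while the groups overlap for Tgfb1.

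Chemokines that draw monocytes, and their receptors, had a median of 0.74, with 8 of 15 genes higher and 0 lower at an unadjusted p under 0.05. The count was 5 without mouse 44 or 67 and 12 without mouse 50. The mean log2 CPM of the list was 6.2, 5.28, 5.79, 6.03 and 5.88 with the combination and 5.04, 5.57, 5.02, 4.9 and 4.99 with anti-PD-1. Every combination mouse was above every anti-PD-1 mouse, apart from mouse 50, which lay below mouse 52. Ccl5, which draws T cells and macrophages, was at 65, 23.5, 46.5, 45.3 and 31.7 CPM against 10.3, 33.5, 15.8, 17.6 and 13.6 CPM (log2 difference 1.22, SE 0.40). Ccl3 was at 17.8 ± 9.56 against 7.32 ± 3.12 CPM (log2 difference 1.28, SE 0.43). Ccl2, the main ligand of the monocyte receptor CCR2, was at 350, 322, 325, 335 and 368 CPM against 160, 288, 190, 287 and 319 CPM (log2 difference 0.45, SE 0.17). It was the only gene of the list whose groups did not overlap. Ccl7, another ligand of CCR2, was at 92 ± 12.9 against 65.9 ± 18 CPM (log2 difference 0.48, SE 0.18).

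Neutrophil genes were higher in some combination mice. The list gave 6 of 17 genes higher and 0 lower, with a median of 0.90, and the list of neutrophil-attracting chemokines and growth factors 3 of 10, with a median of 0.68. Clec4e, which encodes the receptor Mincle, was at 45, 12, 20.2, 29.1 and 21.2 CPM against 7.31, 20.8, 9.06, 9.51 and 8.73 CPM (log2 difference 1.20, SE 0.38). Cxcr2 was at 9.94, 0.98, 2, 5.33 and 3.92 CPM against 3.25, 1.31, 1.43, 0.369 and 0.577 CPM (log2 difference 1.67, SE 0.77), with overlap through mice 50, 60 and 47. Csf3r, the receptor for G-CSF, had a log2 difference of 1.03 (SE 0.48), Clec4d, a partner of Mincle, one of 1.37 (SE 0.52), and Csf2rb, the shared chain of the GM-CSF, IL-3 and IL-5 receptors, which has a close copy, one of 0.72 (SE 0.32). Cxcl2, a ligand of CXCR2, was at 40.3, 2.56, 7.77, 14.6 and 20.2 CPM against 16.2, 6.62, 4.21, 1.33 and 2.96 CPM (log2 difference 1.45, SE 0.80, unadjusted p over 0.05). Ltf, which encodes the granule protein lactoferrin, was at 81.6 CPM in mouse 71 and 12 CPM in mouse 80 and at most 2.8 CPM in the other 8 mice. Ltf is also made by epithelia, and mouse 71 had the highest epithelial list of the 10 mice, whose part in the result was not tested. The chemokine list gave 0 higher genes without mouse 44, 71, 54 or 76 and 1 without mouse 67, with a median of 0.43 without mouse 44, and the neutrophil list 2 without mouse 44 or 71, 3 without mouse 54 or 76 and 8 without mouse 47.

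T cell genes had large median differences and wide spreads. Of 28 genes of the T cell receptor complex and its coreceptors, 27 had a log2 difference above 0, and the median was 0.92, but 2 had an unadjusted p under 0.05. Cd8a was at 29.5, 6.64, 16.6, 9.31 and 15.8 CPM against 2.29, 24.9, 1.21, 5.6 and 4.83 CPM (log2 difference 1.00, SE 0.66, adjusted p = 0.495). Except for mouse 52, every anti-PD-1 mouse had less Cd8a than every combination mouse, while 15.5 ± 5.99 CPM was measured with the isotype control. Cd4 was at 5.04, 1.51, 6.01, 4.45 and 3.65 CPM against 2.07, 3.24, 2.07, 1.99 and 2.24 CPM (log2 difference 0.83, SE 0.44, unadjusted p over 0.05). Mouse 50 was the exception here, with the lowest Cd4 of the 10 mice. Without mouse 52, 23 of the 28 genes were higher, and without mouse 50 15 were, while without mouse 44 or 54 0 were. The median ran from 0.62 without mouse 44 to 1.47 without mouse 52. Trbc1, a constant region of the T cell receptor beta chain with a close copy, was at 8.82 ± 3.36 against 4.64 ± 1.55 CPM (log2 difference 0.93, SE 0.38). Ptprc, which encodes the pan-leukocyte marker CD45, was at 282, 107, 260, 277 and 275 CPM against 59.9, 286, 101, 131 and 140 CPM (log2 difference 0.74, SE 0.42, adjusted p = 0.461). Mouse 50 was the lowest combination mouse and mouse 52 the highest of all 10.

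**Figure D4:**
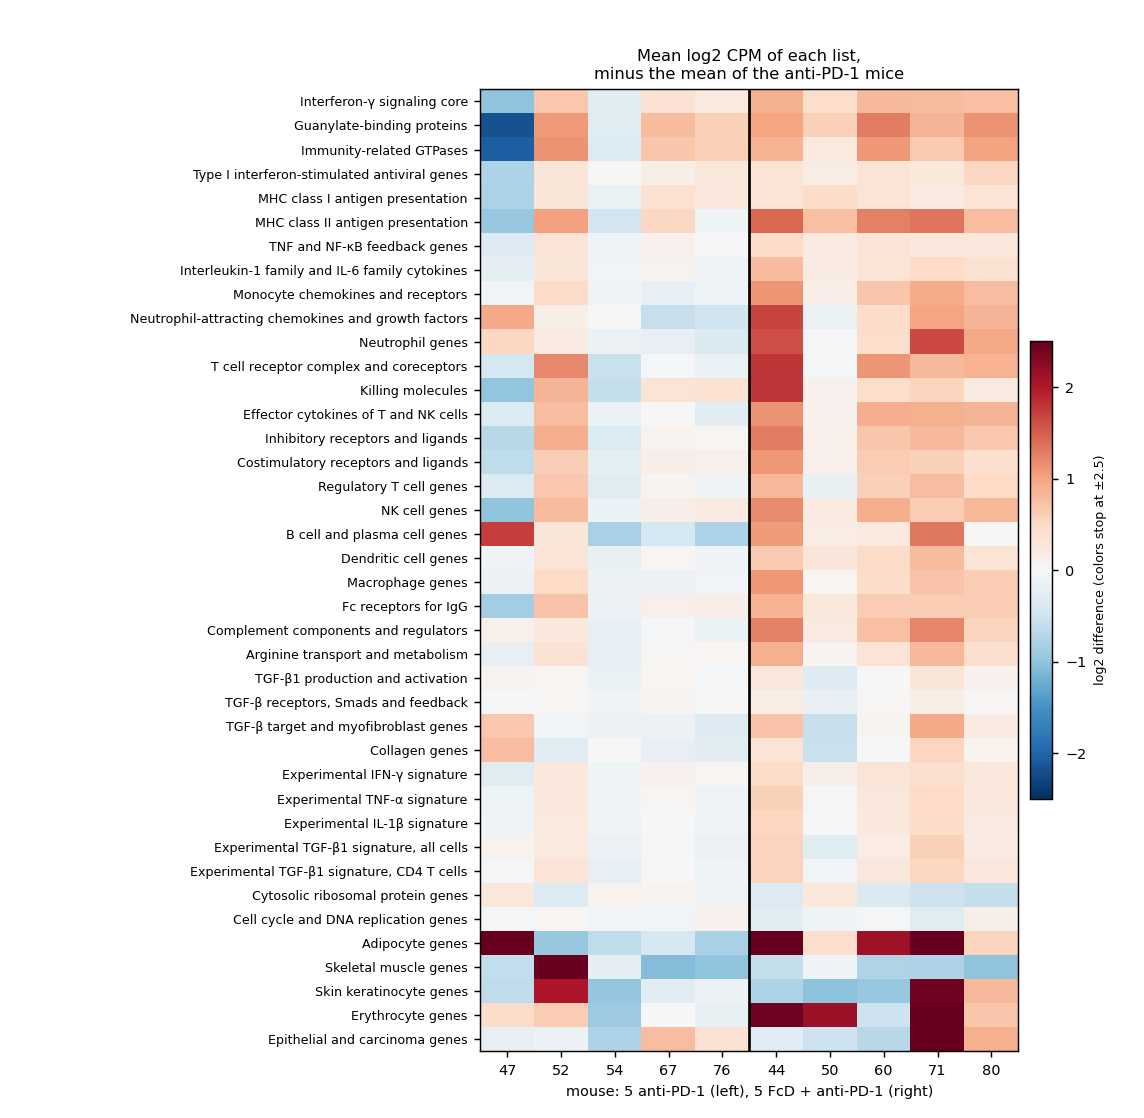
Heat map of the mean log2 CPM of each list (rows) in each mouse (columns, 5 anti-PD-1 mice on the left and 5 combination mice on the right), minus the mean of the anti-PD-1 mice, with red above and blue below it and colors that stop at 2.5. In the IFNγ signaling row, mouse 47 (4.5 before subtraction) is the bluest and mouse 52 (6.18) resembles the combination mice (5.93 to 6.39), and mouse 50 is the palest combination mouse in most immune rows.

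Killing molecules and effector cytokines leaned higher as well. Of 20 tested genes of cytotoxic granules and death ligands, 9 were higher and 0 lower at an unadjusted p under 0.05, with a median of 0.74. Gzmb, a granule protease of killer cells, was at 213, 65.6, 113, 119 and 111 CPM against 12.2, 140, 29.9, 81.3 and 92.6 CPM (log2 difference 0.80, SE 0.40), and Prf1, the pore-forming perforin, had a log2 difference of 0.72 (SE 0.39, unadjusted p over 0.05). Serpinb9, an inhibitor of granzyme B that protects cells from it, was at 57.6 ± 13.6 against 36.4 ± 14.9 CPM (log2 difference 0.66, SE 0.24), and its relative Serpinb6b at 19.5 ± 7.56 against 10.4 ± 6.2 CPM (log2 difference 0.91, SE 0.33). These 2 genes protect against granule proteases and are counted among the killing molecules. The count was 2 without mouse 44 or 47, 3 without mouse 54, 5 without mouse 67, 6 without mouse 60 or 80, and 12 without mouse 52, and the median was 0.43 without mouse 44. Of the 12 tested effector cytokines of T and NK cells, 5 were higher (median 0.73), with 4 to 6 in each fit without 1 mouse and a median of 1.12 without mouse 52. NK cell genes gave 5 of 18 higher (median 0.60, all above 0), Klrk1, the receptor NKG2D, with 35 ± 6.57 against 19.9 ± 13.8 CPM (log2 difference 0.81, SE 0.39). That count was 0 without mouse 44, 47 or 54, 1 without mouse 60 or 67, 3 without mouse 80 or 76, and 10 without mouse 50 or 52.

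Inhibitory receptors and their ligands gave 5 of 23 genes higher and 0 lower, with a median of 0.63. Cd274, which encodes PD-L1, was at 292, 110, 199, 225 and 186 CPM against 19.3, 213, 54.9, 141 and 100 CPM (log2 difference 0.94, SE 0.41). Pdcd1lg2, the other PD-1 ligand, was at 26.2, 4.75, 17.4, 12.9 and 17.1 CPM against 0.812, 11.8, 2, 3.61 and 4.83 CPM (log2 difference 1.76, SE 0.66). In both, mouse 50 was the lowest combination mouse and mouse 52 the highest anti-PD-1 mouse. Pdcd1, the target of the anti-PD-1 mAb in both groups, was at 18.7, 4.83, 7.53, 4.32 and 5.97 CPM against 1.85, 11.9, 1.07, 3.02 and 3.25 CPM (log2 difference 0.97, SE 0.63, adjusted p = 0.489). The inhibitory list gave 2 higher genes without mouse 44 or 47, 3 without mouse 71, 54 or 76 and 14 without mouse 52, with a median of 1.04 in the last case. Costimulatory receptors and ligands gave 4 of 16 higher (median 0.52, from 0 without mouse 47 or 54 to 9 without mouse 52), among them Cd40 (22 ± 2.4 against 14.5 ± 6.03 CPM, log2 difference 0.60, SE 0.27) and Cd86 (23.6 ± 2.27 against 17.3 ± 5.98 CPM, log2 difference 0.44, SE 0.22), which myeloid cells and B cells use to stimulate T cells.

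Regulatory T cell genes, which include the cells that display GARP, gave 3 of 21 higher and 0 lower, with a median of 0.62. Foxp3, their defining transcription factor, was at 1.87, 1.13, 3.61, 2.43 and 2.06 CPM against 1.4, 2, 0.856, 0.59 and 0.577 CPM (log2 difference 1.02, SE 0.47). Mice 44 and 50 lay within the anti-PD-1 range. The list gave 1 higher gene without mouse 60, 71, 54 or 76, 6 without mouse 50 and 11 without mouse 52. Effector and exhaustion transcription factors of T cells gave 7 of 22 higher and 0 lower (median 0.64). The count was 1 without mouse 71, 2 without mouse 44 or 76, 3 without mouse 54 or 67, 4 without mouse 60 or 47, 11 without mouse 52 and 13 without mouse 50. The smallest p among them was that of Gata3, a factor of type 2 helper cells that epithelia also express, at 4.04, 1.66, 2.32, 18.6 and 5.11 CPM against 1.99, 1.79, 3.21, 2.36 and 2.74 CPM (log2 difference 1.39, SE 0.45). Its log2 difference was 0.44 without mouse 71, which had the highest levels of epithelial genes, and their part in the result was not tested.

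Macrophage genes gave 5 of 24 higher and 0 lower, with a median of 0.59 and 21 above 0. Nos2, described above, is one of them, and C1qa, a complement gene of macrophages, was at 684 ± 44.1 against 484 ± 155 CPM (log2 difference 0.50, SE 0.28, adjusted p = 0.461). Spp1, which encodes osteopontin and which tumor cells also make, was at 1720 ± 675 against 2380 ± 432 CPM (log2 difference -0.47, SE 0.23, unadjusted p over 0.05). The count was 1 without mouse 44, 2 without mouse 54 or 67, 3 without mouse 71 or 76, 11 without mouse 50 and 15 without mouse 52. The 7 tested Fc receptors for IgG had a median of 0.51, all above 0, and 0 of them had an unadjusted p under 0.05, while 5 did without mouse 52. Dendritic cell genes gave 7 of 23 higher and 0 lower (median 0.28). Xcr1 and Clec9a, markers of the dendritic cells that cross-present antigen, were at 9.41 ± 5.24 against 3.83 ± 3.16 CPM (log2 difference 1.29, SE 0.60) and at 4.88 ± 2.33 against 2.01 ± 0.962 CPM (log2 difference 1.27, SE 0.58). The dendritic list gave 1 higher gene without mouse 71, 2 without mouse 54, 3 without mouse 67 or 76, 4 without mouse 44 or 47 and 10 without mouse 52, and its median was 0.52 without mouse 67. B cell and plasma cell genes had a median of 0.04, with 2 of 24 higher, and the median was 1.42 without mouse 47.

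Complement genes lay on the higher side throughout. Of 20 tested components and regulators, all had a log2 difference above 0, the median was 0.61, and 7 were higher at an unadjusted p under 0.05, with 4 to 14 in the fits without 1 mouse, lowest without mouse 44 and highest without mouse 52. C3, the central component, was at 341, 142, 282, 375 and 185 CPM against 166, 108, 80.2, 148 and 97.7 CPM (log2 difference 1.15, SE 0.37). Only mouse 50 lay below the highest anti-PD-1 mouse, which was mouse 47. C4b was at 329, 164, 239, 321 and 217 CPM against 125, 179, 95.9, 167 and 126 CPM (log2 difference 0.88, SE 0.30).

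Genes that import and use arginine gave 5 of 11 higher, although the median of the list was 0.05. Slc7a2, the cationic amino acid transporter that supplies arginine to macrophages, was at 23.5, 4.07, 12.7, 77.9 and 14.5 CPM against 3.18, 13.3, 2.21, 5.68 and 4.18 CPM (log2 difference 2.21, SE 0.57). Mouse 71 was far above the rest, and the log2 difference was 1.25 without it. Ass1, which rebuilds arginine from citrulline, was at 32.6, 17.9, 31.1, 34.2 and 27.3 CPM against 9.67, 24.1, 12.3, 20 and 19.4 CPM (log2 difference 0.74, SE 0.25). The list gave 2 higher genes without mouse 44.

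Among genes of the pathway that the FcD mAb targets, the groups overlapped for each gene named here. Lrrc32, which encodes GARP, was at 12.5, 2.64, 6.17, 10.4 and 5.84 CPM against 8.49, 5.79, 3.5, 5.9 and 3.68 CPM (log2 difference 0.46, SE 0.43, adjusted p = 0.616), and the groups overlapped almost fully. Tgfb1 was at 124, 83, 89, 91.5 and 115 CPM against 86.2, 104, 84, 97.6 and 82.5 CPM (log2 difference 0.14, SE 0.16, adjusted p = 0.678). Tgfb2 and Tgfb3, the other isoforms, had log2 differences of 0.26 (SE 0.34, adjusted p = 0.715) and -0.12 (SE 0.17, adjusted p = 0.726). Itgb8, part of the integrin that releases TGF-β1 from GARP, was at 1.91 ± 1.39 against 1.92 ± 0.502 CPM (log2 difference -0.00, SE 0.42, adjusted p = 0.999), and its sign turned without mouse 44, 50, 60 or 67. Of the 14 tested genes of TGF-β1 production and release, 1 was higher and 1 lower, with a median of 0.09. The higher count was 2 without mouse 50 or 52 and 0 without any of the others but mouse 60, and the median ran from 0.05 without mouse 44 or 71 to 0.18 without mouse 50. The higher one was Nrros, which holds latent TGF-β1 on macrophages as GARP does on regulatory T cells, at 95.9, 69.1, 83.4, 89.9 and 96.5 CPM against 39.3, 89, 56.5, 57.3 and 56.5 CPM (log2 difference 0.54, SE 0.25). The lower one was Ltbp4, which tethers latent TGF-β to matrix, at 275, 420, 325, 256 and 299 CPM against 480, 329, 398, 427 and 377 CPM (log2 difference -0.35, SE 0.16). Thbs1, a matrix protein that can release TGF-β, was at 103 ± 56.4 against 68.3 ± 23.4 CPM (log2 difference 0.59, SE 0.40, adjusted p = 0.499). The mean log2 CPM of the list was 5.54 ± 0.25 with the combination and 5.47 ± 0.10 with anti-PD-1 (SD, n = 5 each).

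TGF-β receptors, Smads and feedback genes gave 1 of 18 higher and 0 lower (median 0.03), and the target and myofibroblast genes 1 of 22 higher and 0 lower (median 0.30, -0.08 within libraries 41 to 60 and 0.69 within libraries 61 to 80). The 17 tested collagen genes had a median of 0.00, with 1 higher and 0 lower, and Col1a2 was at 1130 ± 118 against 1220 ± 211 CPM (log2 difference -0.11, SE 0.16, adjusted p = 0.74). Without single mice, the higher count ran from 0 to 3 without mouse 50 for the receptor list, from 0 without mouse 71 to 4 without mouse 47 for the target list and from 0 to 2 without mouse 47 for collagens. The median of the target list ran from 0.08 without mouse 44 and 0.10 without mouse 71 to 0.51 without mouse 50.

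Few of the lists leaned the other way. All 32 tested cytosolic ribosomal protein genes had log2 differences below 0, with a median of -0.29, and 4 were lower at an unadjusted p under 0.05. Rplp0, of the ribosomal stalk, was at 1870, 3110, 1920, 1730 and 1790 CPM against 3430, 1820, 3020, 2720 and 2530 CPM (log2 difference -0.38, SE 0.18). Mouse 50 was high and mouse 52 low, the reverse of their positions in the immune genes. The number of lower genes was 32 without mouse 50, 16 without mouse 52 and 0 without mouse 71, 80 or 47. Cell cycle genes gave 0 higher and 3 lower of 32, with a median of -0.10, and the lower count was 0 without mouse 44 or 71, 1 without mouse 52, 54 or 76, 5 without mouse 50 or 67 and 7 without mouse 80. Krt20, a keratin of intestinal epithelium, was at 57.1, 80.5, 61.9, 41.9 and 44.9 CPM against 113, 115, 69.6, 101 and 158 CPM (log2 difference -0.96, SE 0.28). Only anti-PD-1 mouse 54 lay below combination mouse 50. The list of epithelial genes went the other way, with a median of 1.32 and 7 of 23 genes higher and 1 lower. Its median was 0.02 without mouse 71.

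The mice came in 2 ranges of libraries that differ in sex. Within libraries 41 to 60 and within libraries 61 to 80, the median log2 difference was 1.08 and 0.93 for MHC class II, 0.27 and 0.12 for the TNF and NF-κB list, 0.39 and 0.44 for the IL-1 and IL-6 families, and 0.64 and 1.04 for monocyte chemokines. It was 0.55 and 1.52 for neutrophil genes, 0.84 and 1.14 for the T cell receptor complex, 1.07 and 0.41 for killing molecules, 0.57 and 0.91 for complement, and -0.16 and -0.55 for ribosomal protein genes. The sign turned between the ranges for other lists, with 0.52 and -0.05 for MHC class I, -0.08 and 0.69 for TGF-β target and myofibroblast genes, -0.23 and 0.22 for collagens, -0.37 and 1.94 for B cell and plasma cell genes, -0.04 and 1.62 for mast cell genes, and -0.04 and 0.42 for endothelial genes. It also turned for glycolysis and hypoxia genes (0.09 and -0.06) and for the muscle (-2.59 and 0.07), keratinocyte (-3.58 and 2.49) and epithelial (-0.04 and 2.25) lists. Each of these within-range values compares 3 with 3 or 2 with 2 mice. At an unadjusted p under 0.05, edgeR gave 349 genes within the first range and 2111 within the second, and 0 at an adjusted p under 0.05 in either.

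Markers of other tissues also entered the lists of largest differences. The 14 tested skeletal muscle genes had a median of -1.94 and 10 were lower, while 0 were lower and the median was -0.14 without mouse 52. Mylpf, a myosin light chain of fast muscle, had the smallest p of all genes (log2 difference -2.52, SE 0.57) with 20 CPM in mouse 52 and 0.405 to 1.5 CPM in the other 9 mice. Acta1 (63.3 CPM in mouse 52, at most 2.5 CPM elsewhere) and Ckm (22.8 CPM, at most 1.81 CPM elsewhere) were alike. All 8 tested erythrocyte genes were higher at an unadjusted p under 0.05 (median 1.74), Slc4a1 with 8.5, 4.98, 0.321, 14.5 and 2.52 CPM against 0.295, 0.621, 0.143, 0.664 and 0.649 CPM, and Hbb-bs, which has close copies, with 174, 132, 28, 166 and 44.5 CPM against 67.5, 53.5, 23.2, 39.3 and 23 CPM. The erythrocyte count was 1 without mouse 71 or 54, 2 without mouse 44 or 76 and 3 without mouse 50 or 67. Adipocyte genes had a median of 1.45, with 2 of 16 higher, and 14 of 16 without mouse 47. Adrb3, the adrenergic receptor of fat, was at 6.77, 0.754, 3.69, 14.4 and 0.863 CPM against 5.69, 0, 0.285, 0.147 and 0.144 CPM (log2 difference 2.08, SE 1.06, unadjusted p over 0.05). Epithelial genes had a median of 1.32 with 7 of 23 higher, and 0 higher and a median of 0.02 without mouse 71, where Krt7 was at 41.8 CPM and Cdh1 at 21.6 CPM, against at most 3.91 and 5.58 CPM in the other mice. The 9 tested skin keratinocyte genes had a median of 0.23 with 0 at an unadjusted p under 0.05.

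Of the 70 higher (0.474%) and 77 lower (0.522%) genes whose groups did not overlap, those with the smallest p included Sema4a, Ly6i, Cib2, Ackr2, Asap3, Anapc10 and Ing1. The 10 mice can be divided into the 2 groups of 5 in 252 ways, and 1 of these puts one group wholly above the other in a given direction. Sema4a, a semaphorin that stimulates T cells, was at 48.6, 29.3, 36, 40.1 and 36.4 CPM against 11.2, 27.1, 17.1, 21.4 and 19.7 CPM (log2 difference 0.98, SE 0.30). The log2 difference was between 0.83 and 1.13 without any 1 mouse. Since the gene was picked for groups that do not overlap, this range is no separate support. Ly6i, a surface protein of the Ly6 family with close copies, was at 5.33, 4.22, 5.53, 4.99 and 4.18 CPM against 0.148, 2.62, 1.57, 2.51 and 1.51 CPM (log2 difference 1.53, SE 0.44). Cib2, which binds calcium and integrins, was at 4.54, 1.58, 2.81, 5.46 and 1.86 CPM against 1.26, 1.03, 1.43, 0.885 and 0.649 CPM (log2 difference 1.62, SE 0.43). Ackr2, a decoy receptor that removes inflammatory chemokines, was at 0.802 ± 0.303 against 0.259 ± 0.0373 CPM (log2 difference 1.60, SE 0.53), which rests on 3 to 17 reads per mouse. Asap3 had a log2 difference of 0.51 (SE 0.16). Mylpf, described above, was among the lower genes. Anapc10, a subunit of the anaphase-promoting complex, was at 17.4, 21.6, 17.3, 14.4 and 15.3 CPM against 22.7, 21.9, 22.3, 22.6 and 21.7 CPM (log2 difference -0.37, SE 0.11), and Ing1, a chromatin reader, had one of -0.24 (SE 0.08).

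**Figure D5:**
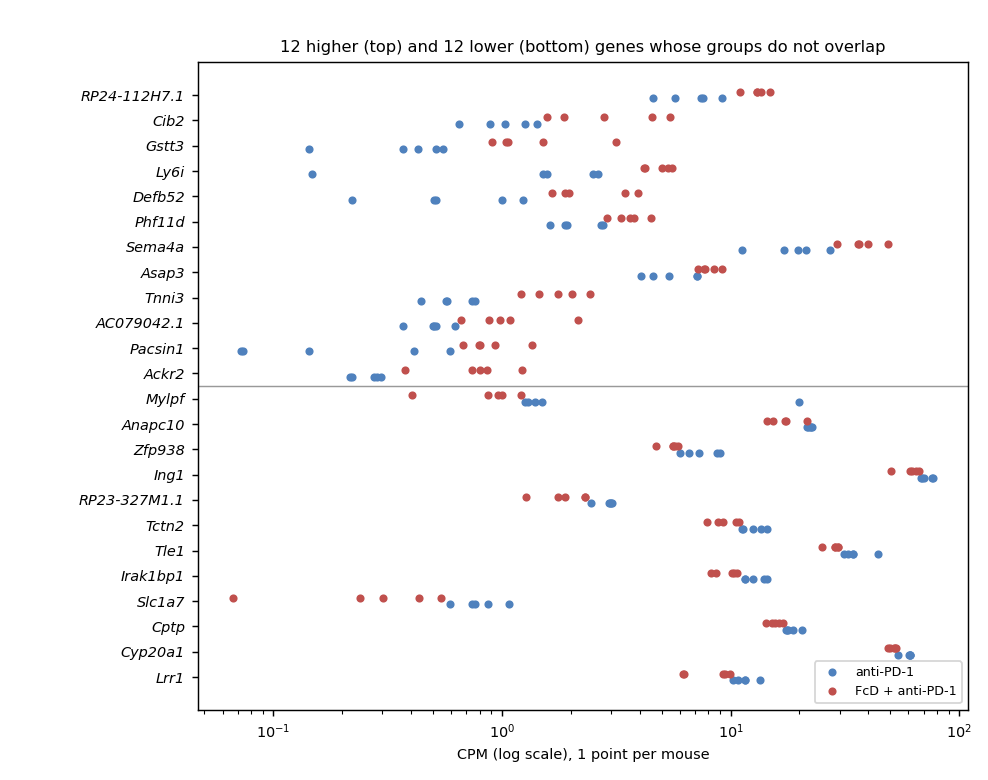
CPM (log x axis) in each of the 10 mice, red for the combination and blue for anti-PD-1, of the 12 higher genes (top) and the 12 lower genes (bottom) with the smallest p among those whose groups do not overlap. For Sema4a the combination mice start at 29.3 CPM and the anti-PD-1 mice end at 27.1 CPM, and in the lower part the anti-PD-1 value of 20 CPM for Mylpf is that of mouse 52.

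Whether the effect of the FcD mAb differed with and without anti-PD-1 was asked with an interaction term, which sets the FcD difference under anti-PD-1 against FcD alone minus isotype control. No gene passed it (0 genes in edgeR, smallest adjusted p 0.787, and 0 in DESeq2). At an unadjusted p under 0.05 there were 663 genes (4.49%) in edgeR and 937 of 31287 genes in DESeq2. The edgeR count was 1757 without mouse 50, 1650 without mouse 52, 432 without mouse 44 and 412 without mouse 71, and it was 1351 when only the 4 groups compared were fitted. Without anti-PD-1, FcD minus isotype control gave 70 genes at an unadjusted p under 0.05, and the list medians were -0.13 for IFNγ signaling, -0.09 for MHC class II, -0.12 for monocyte chemokines and -0.33 for the T cell receptor complex. The corresponding medians of the interaction were 0.67, 1.00, 0.75 and 1.22, and 6 of 25, 0 of 13, 4 of 15 and 3 of 28 genes had an unadjusted p under 0.05. In the type I interferon list it was 10 of 30 genes, with a median of 0.45. Ifng was at 1.19 ± 0.489 CPM with the isotype control and 0.989 ± 0.497 CPM with FcD alone, and its interaction was 1.54 (SE 0.68). Nlrp3 was at 16 ± 5.26 and 13 ± 0.859 CPM in these groups, with an interaction of 1.14 (SE 0.37), and Ccl5 at 15.9 ± 4.29 and 13.7 ± 3.48 CPM, with one of 1.44 (SE 0.56), and the adjusted p was 0.787 for all 3 genes.

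The FcD combination was also set against the combinations with other mAbs. Against WT + anti-PD-1, 0 genes passed in edgeR and 192 (1.3%) had an unadjusted p under 0.05 (337 of 31287 in DESeq2, where 0 genes passed). The 192 became 787 without WT combination mouse 77, 293 without WT combination mouse 55 and 335 without mouse 50, with 0 genes passing each time. List medians were 0.02 for IFNγ signaling, -0.16 for MHC class II, 0.04 for monocyte chemokines, -0.45 for the T cell receptor complex, -0.35 for killing molecules, 0.55 for neutrophil genes and 1.77 for adipocyte genes. Of the 16 adipocyte genes 5 had an unadjusted p under 0.05, and of each of the other 6 lists 0 or 1 gene did. In this comparison, the log2 difference was 0.12 for Ifng (SE 0.45) and -0.33 for Gzmb (SE 0.39), both at an unadjusted p over 0.05. Against anti-TGF-β + anti-PD-1, 954 genes (6.46%) passed an adjusted p under 0.05, 397 higher and 557 lower with FcD, and DESeq2 called 1980. The WT and anti-TGF-β combinations each had 2 mice from libraries 41 to 60 and 3 from libraries 61 to 80, against 3 and 2 for FcD + anti-PD-1, and with the library range as a covariate the count was 724, and with the library number 830. The count depended on each of the 10 mice and on the fit. It was 4253 without combination mouse 50 and 4609 without anti-TGF-β combination mouse 53, and it was 0 without any of the other 8 mice. Slc7a2 (log2 difference 2.20, adjusted p = 0.0447) and Cib2 (1.41, adjusted p = 0.0463) were among the genes called. None of the 25 IFNγ signaling genes, the 13 MHC class II genes or the 28 T cell receptor genes was called, with medians of 0.07, 0.23 and 0.29. Of 24 proteasome genes 8 were called, with a median of -0.34. Of 113 genes of the TGF-β1 signature over all cell types 5 were called, a share below the 6.46% of all genes. All 5 were higher with FcD, and the median of the signature was 0.36. Compared with the same anti-PD-1 mice, WT + anti-PD-1 gave 0 genes and anti-TGF-β + anti-PD-1 gave 1 gene at an adjusted p under 0.05, and 2534 and 2521 genes had an unadjusted p under 0.05, beside 0 and 1583 for FcD + anti-PD-1. These 3 comparisons share their 5 control mice.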

How the data were processed

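Tumor RNA of 40 mice was used, 5 in each of 8 groups given by the treatment tags. Per the labels and the submitters' processing notes, the authors aligned paired-end reads to GRCm38 with STAR 2.5.3a, used SAMtools 1.6, counted reads per gene with HTSeq 0.9.1 and deposited raw counts of 54087 genes, of which 31326 had a count. The 27 gene names that had become calendar dates are not named.

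Counts were normalized with TMM and filtered with filterByExpr (14760 genes kept) in edgeR 4.0.16 (R 4.3.3). The robust quasi-likelihood test was fitted in 1 model of all 40 mice, 2-sided, with Benjamini-Hochberg adjustment. The standard error is the log2 difference divided by the square root of F. CPM uses TMM library sizes, and list levels are means of log2 CPM with a prior count of 2. Counts of mice of 1 group differed by at least 6.89 times counting noise (chi-square per degree of freedom, 20 pairs), so no library was a copy.

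The 51 gene lists, 5 signatures and 271 genes by rule (15 of the pathway and T cells, the 12 higher and 12 lower genes with the smallest p and no overlap, and the 4 smallest p and the highest level of each list) were chosen with earlier results of these data known. The genes printed were taken from these 271 by role. Alternatives were DESeq2 1.42.0 (Wald test, size factors), no filter, only the compared groups, library number or range as covariate, each range alone, a prior count of 0.5 and each mouse left out. The tests were tried on simulated counts.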

Additional observations from a re-analysis of the deposited data

Results flagged for a closer look

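Among 258 groups of 5 mice examined (the named genes, the list levels and the library totals), 38 held a mouse whose gap to the next mouse was over 0.71 of the group's range (Dixon's limit). For normally distributed values, chance alone gives about 1 group in 20. Single genes were examined as CPM without a logarithm, so that rate may not hold for them. These groups are not independent, since the same mice enter each.

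Anti-PD-1 mouse 52 stood apart in 15 of them. It was high in the leukocyte genes Pdcd1 (11.9 CPM), Cd8a (24.9 CPM), Cd4 (3.24 CPM), Csf3r (44.8 CPM) and Clec4e (20.8 CPM) and in Sod2 (96.4 CPM) and Ikbke (73.9 CPM) of the TNF and NF-κB list. It was also high in the muscle genes Mylpf (20 CPM), Acta1 (63.3 CPM) and Ckm (22.8 CPM). Its mean log2 CPM was high for monocyte chemokines (5.57), macrophage genes (6.85), skeletal muscle genes (4.23) and skin keratinocyte genes (1.55), as was its total of 14612143 counts. Anti-PD-1 mouse 47 was low in Cd86 (7.09 CPM) and in the type I interferon list (5.02) and high in Adrb3 (5.69 CPM) and in the adipocyte (5.21), TGF-β target (5.48) and collagen (7.66) lists. Anti-PD-1 mouse 67 was high in Il1b (74.2 CPM) and Krt7 (3.91 CPM).

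Combination mouse 71 was high in Ltf (81.6 CPM), Gata3 (18.6 CPM), Slc7a2 (77.9 CPM), Cdh1 (21.6 CPM) and Krt7 (41.8 CPM) and low in Socs1 (33.8 CPM) and Tap1 (336 CPM). Combination mouse 50 was low in Ptprc (107 CPM) and in the lists of IFNγ signaling (5.93) and effector cytokines (1.56), and high in Acta1 (1.66 CPM) and Rplp0 (3110 CPM). Combination mouse 44 was high in Pdcd1 (18.7 CPM), Il1a (4.76 CPM) and the list of killing molecules (5.53). Mice 60, 80, 54 and 76 did not stand apart in any of the 258 groups.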

How the results depend on the processing

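The comparison with anti-PD-1, the interaction and the comparison with WT + anti-PD-1 gave 0 genes at an adjusted p under 0.05 under every alternative run. At 5 mice per group only differences that are large beside the spread between mice can pass. Against the anti-TGF-β combination, the 954 genes became 1980 with DESeq2's Wald test, 0 without the filter, 0 with only the compared groups, and 0 to 4609 without single mice (4253 without mouse 50). Their causes were not tested.

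Of 1584 alternative values of 88 single genes, 11 turned sign. Itgb8 was at 0.01 with DESeq2's Wald test, 0.00 with its size factors, 0.62 within libraries 61 to 80 and -0.47 to 0.20 without single mice. Within libraries 61 to 80, H2-D1 was at -0.14, Col1a2 at 0.03 and Acta1 at 0.14. Krt7 ran from -0.03 to 4.09 without single mice. Of 840 list medians, 17 moved by over 1 SD. Within libraries 61 to 80 they were 1.52 for neutrophil, 1.94 for B cell and plasma cell, 4.18 for adipocyte, 0.07 for muscle and 2.49 for keratinocyte genes, and within libraries 41 to 60 -3.58 for keratinocyte and -0.04 for epithelial genes. Without single mice they ran from -0.11 to 1.42 (B cell), 0.24 to 0.52 (dendritic cell), 0.65 to 4.16 (adipocyte), -2.23 to -0.14 (muscle) and 0.02 to 1.57 (epithelial). Library totals differed by -0.17 and, without single mice, by -0.37 to 0.18 (1000000 counts). No paired analysis was possible because the labels give no replicate numbers that groups share.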
